A study of Mus musculus with 24 samples.

Results

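Immunoglobulin and early B-lineage genes were followed through 24 RNA sequencing libraries of sorted mouse marrow cells, from mice with Phf6 deleted and from control mice. The set held 8 genes of the 27179 in the deposited count table, found by their Entrez identifiers: the kappa variable segment Igkv12-44, the kappa constant region Igkc, the mu heavy chain constant region Ighm, the receptor partners Cd79a and Cd79b, the surrogate light chain gene Vpreb1, and the transcription factors Ebf1 and Pax5. All 8 were in the table. The set was chosen by measured values: Igkv12-44 was selected on its counts in deleted against control HPC-1 cells, and the others were added with results of these data known. Every value of deleted against control HPC-1 is therefore given here as a description, and no test of it is used as support.

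The libraries came from 8 mice in 4 litters, and each litter gave 1 mouse with Phf6 deleted and 1 with Phf6 intact, called control here. Each mouse gave 1 library of HSC (haematopoietic stem cells), 1 of MPP (multipotent progenitors) and 1 of HPC-1 (a restricted progenitor population), so there were 6 groups of 4 libraries. The strain label of both groups reads Phf6lox/Y;Tie2-creTg/+, a floxed X-linked Phf6 with a Cre transgene active in endothelial and blood-forming cells, so the labels do not say whether control mice carried Cre, and ages are not given in the labels. Marrow was depleted with antibodies to CD3, B220, GR1 and TER119 before the sort on cKIT, SCA1, CD150 and CD48, and B220 is a B-cell surface antigen. SMART-Seq amplification was used for HSC and MPP, and a TruSeq kit for HPC-1, so population and kit cannot be told apart there and HPC-1 levels were not tested against HSC or MPP.

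A developing B cell first joins heavy chain gene segments and makes the mu chain, which pairs with a surrogate light chain that includes Vpreb1 and with the signalling pair Cd79a and Cd79b. A kappa variable segment is later joined to Igkc to make the light chain of the finished receptor. Ebf1 and then Pax5 switch on and hold the B-cell programme, while unrearranged immunoglobulin loci also give transcripts of their constant and variable segments in cells that make no antibody.

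Total counts ran from 9658167 to 27786830 per library. The deleted gene followed its labels: Phf6 averaged 55.9 ± 17.8 CPM (counts on scaled library totals, the unit of level throughout) in deleted and 216 ± 23.9 CPM in control HSC, 56.0 ± 8.97 CPM in deleted and 196 ± 26.9 CPM in control MPP, and 27.5 ± 5.90 CPM in deleted and 116 ± 18.6 CPM in control HPC-1 (SD, n = 4 each). Every deleted library lay below every control library of its population. Among sort markers, Slamf1, which encodes CD150, was lower in MPP than in HSC by 4.83 ± 0.94 on the log2 scale in deleted mice and by 5.16 ± 0.26 in controls (± SE).

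Igkv12-44 is 1 of the kappa light chain variable segments, which encode the antigen-binding part of the light chain. It lies at GRCm38 chr6:69814631-69815100, the assembly that mm10 names. Its V exon is shown beside that of Igkv12-41, the closest of the kappa segments compared, because the table counts reads by segment and the similarity bears on which segment a read was given to. Both are from GENCODE M21 on GRCm38, minus strand, written 5′ to 3′, at chr6:69814631-69814928 and chr6:69858420-69858717. Capitals mark the 13 bases of 298 at which they differ.
Igkv12-44: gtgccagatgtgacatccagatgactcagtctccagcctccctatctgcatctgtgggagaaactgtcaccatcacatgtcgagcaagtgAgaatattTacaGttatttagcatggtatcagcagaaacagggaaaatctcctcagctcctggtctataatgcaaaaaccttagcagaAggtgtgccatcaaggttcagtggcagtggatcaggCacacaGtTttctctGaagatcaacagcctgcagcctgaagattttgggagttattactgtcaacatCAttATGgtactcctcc
Igkv12-41: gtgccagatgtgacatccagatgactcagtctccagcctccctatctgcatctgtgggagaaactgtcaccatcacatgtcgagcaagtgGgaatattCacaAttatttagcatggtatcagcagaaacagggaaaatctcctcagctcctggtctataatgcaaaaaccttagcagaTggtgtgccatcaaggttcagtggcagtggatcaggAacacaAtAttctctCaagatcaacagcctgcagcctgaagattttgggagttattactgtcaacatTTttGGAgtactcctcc

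Over all 347 coding bases Igkv12-44 and Igkv12-41 were 95.7% identical, and Igkv12-46 was 95.4% identical to Igkv12-44. Of 99 other kappa segments compared, only those reached 90% identity. Igkv12-41 shared 34 of the 268 runs of 80 bases, the read length, that lie within the Igkv12-44 coding sequence, and no other segment compared shared any. A read made of such a run is identical in both segments, so counts of Igkv12-44 and Igkv12-41 are uncertain to that extent.

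In HPC-1 cells Igkv12-44 had 75, 26, 50 and 27 counts in the deleted libraries of litters 1 to 4, against 1, 1, 0 and 0 counts in the control libraries of the same litters. All 4 deleted libraries were above all 4 control libraries, and the levels averaged 1.94 ± 0.72 CPM in deleted and 0.0191 ± 0.0221 CPM in control HPC-1 (SD, n = 4 each). Summed over each group, 178 counts stood against 2, a ratio of 96.5 per count sequenced with a 95% exact interval of 26.3 to 803. The interval pools the reads of 4 mice, covers counting error only, leaves out the spread between mice and is not a test. Among the genes past the count filter in HPC-1, 1.58% had all deleted above all control libraries, and 0.0647% passed an adjusted p of 0.05 in either direction; since this contrast chose Igkv12-44, nothing is read from these shares.

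Igkv12-44 was almost silent in the other populations. All 4 deleted HSC and all 4 deleted MPP libraries had 0 counts, which allows up to 0.0436 CPM over the deleted HSC group and 0.0431 CPM over the deleted MPP group. Control HSC held 1 count, in litter 2, and control MPP held 3 counts, all in litter 3. All kappa variable counts were few there. Outside the deleted MPP library of litter 4, which had 780, no HSC or MPP library had more than 67. The 1 count was 6.25% of 16 kappa variable counts in its library, and the 3 counts were 4.48% of 67 in theirs. At this depth no difference between deleted and control cells was detectable in HSC or MPP, and the segment did not pass the count filter of the tests there.

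The near relatives of Igkv12-44 had another pattern in HPC-1. Igkv12-41 had 0, 1, 90 and 0 counts in deleted libraries and 4, 0, 0 and 69 in control libraries of litters 1 to 4. Igkv12-46 had 97, 84, 0 and 0 counts in deleted libraries and 0, 173, 0 and 103 in control libraries. For both relatives deleted and control libraries overlapped. The control HPC-1 library of litter 4, with 69 counts of Igkv12-41, had 0 counts of Igkv12-44.

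Igkv12-44 was a minor part of the kappa repertoire in most HPC-1 libraries. It made up 0.496%, 0.285%, 5.24% and 0.544% of all kappa variable segment counts in deleted libraries of litters 1 to 4, and at most 0.0345% in a control library. By count it ranked 24, 30, 7 and 16 among the kappa segments of the deleted libraries. The most abundant segment was Igkv15-103 in all 4 control libraries, at 45.0%, 34.8%, 52.4% and 65.9% of kappa variable counts. In deleted libraries Igkv15-103 led in litters 1 and 4 at 29.6% and 28.8%, Igkv3-5 led in litter 2 at 16.7% and Igkv19-93 in litter 3 at 19.6%.

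**Figure D1:**
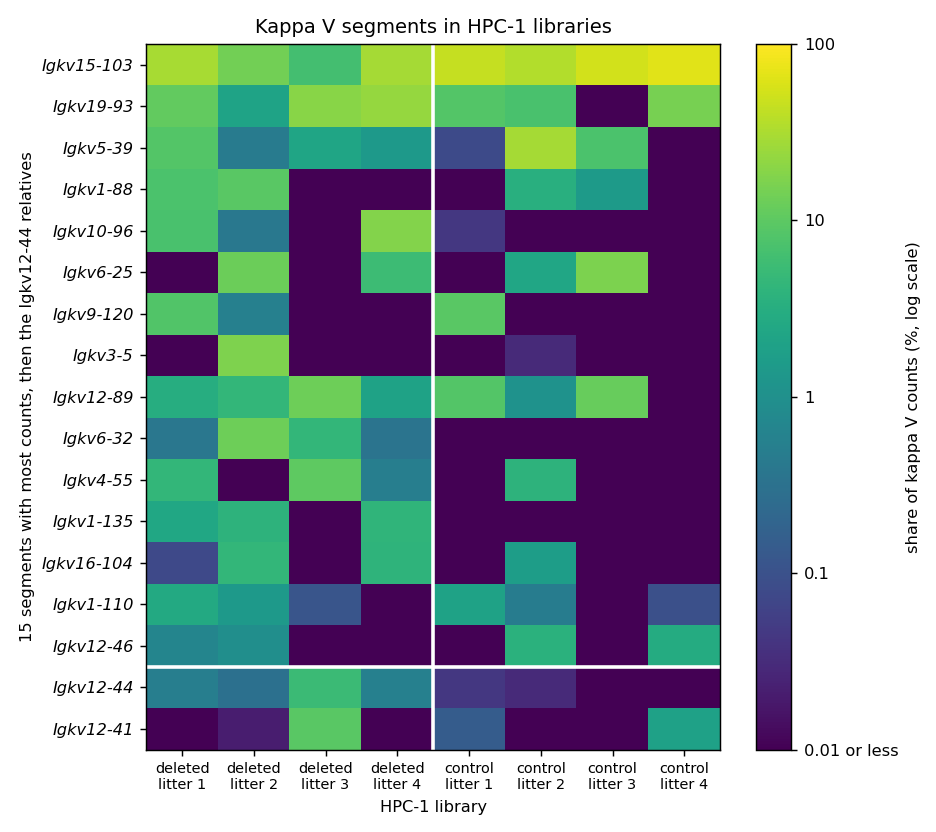
Share of kappa variable segment counts (percent, log colour scale, shares of 0.01% or less in the darkest colour) in each HPC-1 library, for the 15 segments with most counts and, below the white line, Igkv12-44 and Igkv12-41; deleted libraries stand left of control libraries. Igkv15-103 leads every control column, few other segments are filled across a row, and Igkv12-44 is filled in all 4 deleted columns at 0.285% to 5.24%.

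Other kappa segments in the same contrast also had deleted libraries apart from control libraries. Of 103 kappa variable segments in the table, 84 had counts in HPC-1, and 3 had all deleted above all control libraries while 0 had all deleted below. Over all genes past the count filter in HPC-1 the shares were 1.58% above and 2.08% below. Of the kappa segments only 15 passed that filter, so the 3 and these shares have different bases and are not compared. The others were Igkv6-32 and Igkv2-137, each with 0 counts in every control HPC-1 library. In deleted HPC-1 libraries Igkv6-32 had 56, 1213, 43 and 17 counts and Igkv2-137 had 359, 34, 22 and 3. Outside HPC-1, Igkv2-137 was not limited to deleted mice. In HSC it had 0, 0, 0 and 12 counts in deleted and 23, 12, 13 and 0 in control libraries. In MPP it had 39, 3, 13 and 0 counts in deleted and 6, 12, 36 and 0 in control libraries. The log2 difference of Igkv2-137, deleted against control, was -2.19 ± 1.59 in HSC (edgeR adjusted p = 0.998). In MPP it was 0.20 ± 1.21 (edgeR adjusted p = 0.961). Many segments were seen in few mice: 29 had counts in 1 HPC-1 library alone, 7 had counts in all 4 deleted libraries and 1 had counts in all 4 control libraries. Kappa variable counts in all were 15126, 9121, 954 and 4967 in deleted libraries of litters 1 to 4, against 2898, 4923, 981 and 3555 in control libraries. The deleted library was higher in litters 1, 2 and 4 and lower in litter 3, and the deleted library of litter 1 gave 15126 of the 30168 counts of its group.

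Igkc, the constant region shared by all kappa chains, lies at chr6:70726435-70726754. In HPC-1 it had 578, 587, 67.6 and 251 CPM in deleted libraries of litters 1 to 4, against 216, 241, 60.2 and 129 CPM in control libraries. The deleted mouse was higher in 4 of 4 litters, but the groups overlapped, and litter 3 was the lowest in both genotypes. The means were 371 ± 256 CPM in deleted and 161 ± 82.8 CPM in control HPC-1 (SD, n = 4 each).

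In HSC and MPP Igkc was near 0 in most libraries. HSC had 0, 3, 18 and 3 counts in deleted libraries and 0, 4, 5 and 3 in control libraries. MPP had 4, 0, 0 and 1301 counts in deleted libraries and 4, 0, 54 and 3 in control libraries. A single library, deleted MPP of litter 4, thus held nearly all Igkc counts of MPP, and without the count filter, which Igkc did not pass, the deleted against control difference in MPP was 4.22 ± 2.24 log2 (SE, edgeR quasi-likelihood test, Benjamini-Hochberg adjusted p = 0.623).

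In that deleted MPP library of litter 4 some other genes used by antibody-secreting cells also had counts. It had 780 kappa variable counts, of which 658 were Igkv15-103, together with 320 counts of Ighg1, a class-switched heavy chain, and 226 of Jchain, which joins antibody multimers. The other 7 MPP libraries had at most 2 counts of Ighg1 and at most 37 of Jchain. Ighg1 and Jchain were picked after their values were seen from a list of 13 plasma cell markers, whose summed level was 287, 256, 225 and 383 CPM in deleted MPP of litters 1 to 4, against 238, 227, 367 and 339 CPM in control MPP. From the same list Igha and Tnfrsf17 had 0 counts in the deleted library of litter 4. Its summed level of 10 neutrophil markers was 13380 CPM, against 3771, 1802 and 1344 CPM in the other deleted MPP libraries and 2517, 2761, 241 and 2707 CPM in control MPP. Whether cells of another type in that sort supplied its immunoglobulin RNA was not tested, and in bulk libraries like these more cells of a type and more RNA per cell cannot be told apart.

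Ighm, the constant region of the first heavy chain made, lies at chr12:113418826-113422730 and had counts in all 24 libraries. In HSC it had 13.6, 17.4, 13.0 and 16.8 CPM in deleted libraries of litters 1 to 4, against 31.1, 8.01, 3.09 and 5.13 CPM in control libraries. The deleted values were close together and fell within the wider control range, and the test gave a log2 difference of 0.36 ± 0.59 (SE, edgeR quasi-likelihood test, Benjamini-Hochberg adjusted p = 0.998). The control library of litter 1 lay above the other 7 HSC libraries, and without it the difference was 1.495 log2 (edgeR adjusted p = 0.998). The 10 neutrophil markers summed to 4061, 4107, 1476 and 10240 CPM in deleted HSC and to 7499, 3295, 602 and 3705 CPM in control HSC of litters 1 to 4, and their part in the Ighm values was not tested.

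In MPP Ighm had 120, 93.7, 99.2 and 306 CPM in deleted libraries, against 107, 68.0, 39.4 and 69.9 CPM in control libraries. The deleted mouse was higher in 4 of 4 litters, while the groups overlapped through the control library of litter 1. The means were 155 ± 102 CPM in deleted and 71.0 ± 27.5 CPM in control MPP (SD, n = 4 each). The difference of 1.12 ± 0.41 log2 did not pass the adjusted threshold (edgeR quasi-likelihood test, Benjamini-Hochberg adjusted p = 0.597). Without the deleted library of litter 4 the difference was 0.55 log2 (edgeR adjusted p = 0.507). In MPP, 2.96% of genes tested had all deleted above all control libraries and 2.78% all below, and in HSC 1.57% and 1.59%; no gene of the set did so in either population.

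Markers of other cell types in MPP are given beside Ighm. All 10 neutrophil markers were higher in deleted MPP, with a median of 1.28 log2 against 0.02 over all genes tested, and none passed the threshold or an unadjusted p under 0.05 in edgeR. The summed level of 10 plasmacytoid dendritic cell markers was 395, 388, 788 and 447 CPM in deleted MPP, against 349, 316, 335 and 354 CPM in control MPP, with Klk1 at 0 in both groups and Siglech, Cox6a2 and Cd300c at 0 in control MPP. The 10 mature B-cell markers summed to 757, 673, 558 and 1066 CPM in deleted MPP and 483, 411, 436 and 501 CPM in control MPP. None of these genes passed by edgeR. Cr2 and Cd74 of 7 tested mature B-cell markers had an unadjusted p under 0.05. So did Runx2, Tcf4 and Ccr9 of 5 tested plasmacytoid dendritic cell markers, beside 1117 of 13806 genes in all. Of 6 tested plasma cell markers 4 were higher and 2 lower, with 0 under that cutoff. Of 4 tested T and NK cell markers 3 were higher and 1 lower, with Cd4 and Nkg7 under it. The part of all these markers in the Ighm values was not tested.

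Between populations made with the same kit, Ighm was higher in MPP than in HSC. The main tests of MPP against HSC took the libraries as unpaired, though each mouse gave both. Within deleted mice the groups were fully apart, with the lowest MPP value at 93.7 CPM and the highest HSC value at 17.4 CPM, and the difference was 3.32 ± 0.40 log2 (edgeR quasi-likelihood test, Benjamini-Hochberg adjusted p = 0.00367). Of the 3 tested genes of the set 1, Ighm, passed in this comparison, where 1.41% of all genes tested were called and 0.641% were called higher. Leaving out the deleted MPP library of litter 4 gave 2.76 log2, still past the threshold. Markers of some other cell types moved in the same comparison. Of 10 mature B-cell markers all 5 tested were higher in MPP, with a median of 1.15 log2 against 0.02 over all genes. Of these Cd74 at 1.57 ± 0.26 and Cd72 at 1.15 ± 0.21 log2 passed. Of 10 plasmacytoid dendritic cell markers all 5 tested were higher, with a median of 0.81 log2, and Runx2 passed at 1.96 ± 0.39 log2. Of the 10 neutrophil markers 5 were higher and 5 lower, with a median of -0.04 log2, and none passed. The 5 tested plasma cell markers split into 3 higher and 2 lower, with a median of 0.06 log2, and 0 passed. The 4 tested T and NK cell markers split into 2 higher and 2 lower, with a median of 0.38 log2, and 0 passed. The part of such cells in the Ighm difference was not tested.

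Within controls Ighm was also higher in MPP than in HSC in all 4 mice, by 2.56 ± 0.73 log2, and this missed the threshold in the main test (edgeR quasi-likelihood test, Benjamini-Hochberg adjusted p = 0.0791). With the mouse as a block, since both libraries came from the same animal, the difference was 2.99 log2 and the edgeR adjusted p 0.000408, and without the HSC library of litter 1 it was 3.73 log2 with an adjusted p of 0.000159. In this comparison 8.84% of all genes tested passed, and 4.06% were higher in MPP. Beside it, 3 of 4 tested mature B-cell markers were higher in MPP of controls, with a median of 0.69 log2, and Cd72 and Cd37 passed. All 5 tested plasmacytoid dendritic cell markers were higher, with a median of 0.85 log2 and Runx2 passing, and all 5 tested plasma cell markers, with a median of 0.80 log2 and Sdc1 passing. Of the T and NK cell markers 4 were tested, and Lck passed as higher in MPP of controls. All 10 neutrophil markers were lower in MPP of controls, with a median of -0.89 log2, and none passed. The deletion effect in MPP minus that in HSC was 0.77 ± 0.76 log2 for Ighm (edgeR adjusted p = 1) and turned to -0.38 without the control HSC library of litter 1, so the data do not show that the effect of deletion on Ighm differed between populations. These comparisons share libraries with one another and are not independent.

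**Figure D2:**
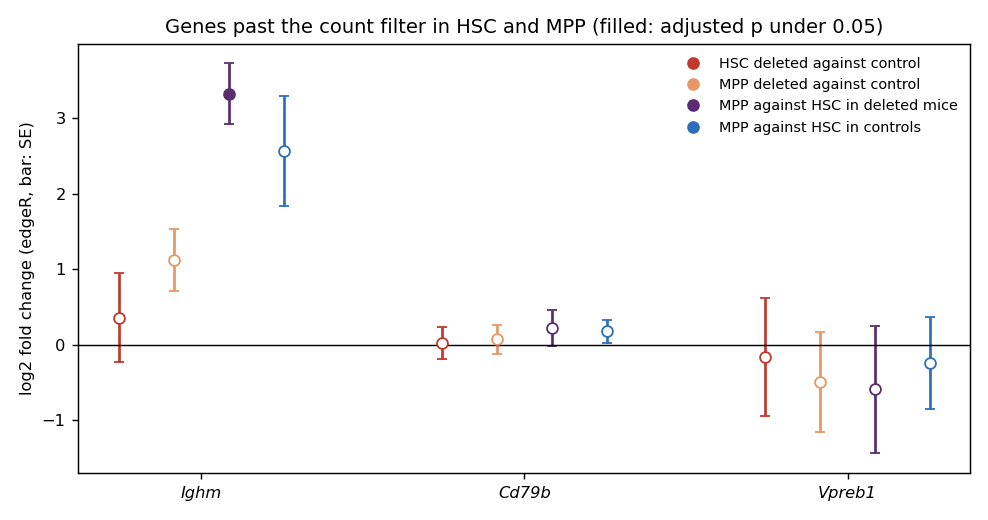
Log2 fold changes (y axis, edgeR) of the 3 genes of the set that passed the count filter in HSC and MPP, with standard errors as bars; filled points passed an adjusted p of 0.05. Only Ighm in MPP against HSC of deleted mice, at 3.32, is filled, and all values of Cd79b lie between 0.02 and 0.22.

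In HPC-1 Ighm had 2201, 2011, 477 and 1348 CPM in deleted libraries of litters 1 to 4, against 1068, 1103, 503 and 676 CPM in control libraries. The deleted mouse was higher in litters 1, 2 and 4 and lower in litter 3, and the groups overlapped. As for Igkc, litter 3 was the lowest of its group in both genotypes. All immunoglobulin segments and constant regions together took 0.370%, 0.353%, 0.0744% and 0.197% of library counts in deleted and 0.162%, 0.175%, 0.0707% and 0.102% in control HPC-1.

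The ratio of kappa to mu constant region was higher in HPC-1 than in all but 1 of the HSC and MPP libraries, though kit and population cannot be told apart here. There were 26.2, 29.2, 14.2 and 18.6 Igkc counts per 100 Ighm counts in deleted HPC-1 libraries, and 20.2, 21.8, 12.0 and 19.1 in control HPC-1 libraries. In MPP the same ratio was 0.174, 0, 0 and 19.2 in deleted and 0.230, 0, 6.24 and 0.330 in control libraries. In HSC it ran from 0 to 10.3 in deleted and from 0 to 10.4 in control libraries. The deleted MPP library of litter 4 was therefore the only MPP library whose ratio lay within the HPC-1 range.

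**Figure D3:**
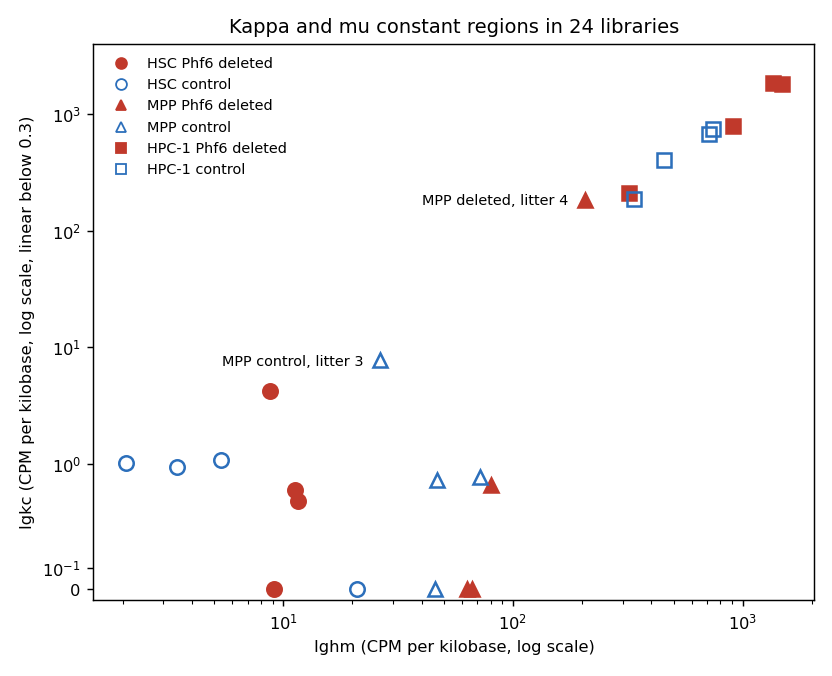
Igkc against Ighm in 24 libraries, both in CPM per kilobase on log axes (Igkc linear below 0.3); filled red symbols are deleted and open blue symbols control libraries. HPC-1 libraries form a diagonal at the upper right, most MPP libraries carry Ighm with almost no Igkc, and the deleted MPP library of litter 4 sits beside the HPC-1 libraries at 205 Ighm and 184 Igkc.

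Of the heavy chain variable segments, Ighv1-77 alone could be tested between MPP and HSC. It was the most abundant heavy variable segment in all 8 MPP libraries, with 42, 95, 172 and 127 counts in deleted and 37, 47, 39 and 84 counts in control libraries of litters 1 to 4. HSC had 3, 0, 0 and 21 counts of Ighv1-77 in deleted and 1, 0, 0 and 10 in control libraries. Fitted without a mouse block, the MPP against HSC difference was 4.35 ± 1.32 log2 in deleted mice (edgeR adjusted p = 0.141). In controls it was 3.82 ± 1.06 log2 (edgeR adjusted p = 0.0392). In HPC-1 the leading heavy segment differed from mouse to mouse, with 7 different segments leading in 8 libraries, of which Ighv11-2 led in both mice of litter 1.

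Cd79a and Cd79b encode the signalling pair of the B-cell receptor, and their levels were far apart. Cd79b, at chr11:106311341-106314562, averaged 37.8 ± 8.13 CPM in deleted and 37.3 ± 3.25 CPM in control HSC, 44.7 ± 7.72 CPM in deleted and 42.5 ± 5.12 CPM in control MPP, and 24.1 ± 3.85 CPM in deleted and 25.1 ± 0.547 CPM in control HPC-1 (SD, n = 4 each). The deleted and control ranges overlapped in each population. The log2 differences were 0.02 ± 0.21 in HSC (edgeR adjusted p = 0.998) and 0.07 ± 0.19 in MPP (edgeR adjusted p = 0.911), and MPP exceeded HSC by 0.22 ± 0.24 in deleted mice (edgeR adjusted p = 0.725) and 0.18 ± 0.15 in controls (edgeR adjusted p = 0.552).

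Cd79a, at chr7:24897497-24901858, was close to the detection limit in HSC and MPP, with 0, 7, 0 and 11 counts in deleted and 3, 6, 13 and 2 counts in control HSC, and 5, 13, 1 and 8 counts in deleted and 3, 2, 11 and 1 counts in control MPP. In HPC-1 it had 70, 59, 3 and 72 counts in deleted and 118, 101, 0 and 36 counts in control libraries. Litter 3 was nearly empty in both genotypes, and the deleted and control values overlapped in all 3 populations.

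Vpreb1, at chr16:16868401-16869255, encodes the variable-like part of the surrogate light chain. HSC had 2.28, 1.78, 1.57 and 0.694 CPM in deleted libraries of litters 1 to 4, against 0.821, 1.03, 1.80 and 3.52 CPM in control libraries. MPP had 2.04, 1.38, 0.293 and 0.542 CPM in deleted libraries, against 1.78, 0.688, 2.01 and 1.54 CPM in control libraries. Deleted and control libraries overlapped in both, and the log2 differences were -0.17 ± 0.78 in HSC (edgeR adjusted p = 0.998) and -0.49 ± 0.66 in MPP (edgeR adjusted p = 0.803). In the populations' own comparison MPP stood at -0.59 ± 0.85 log2 from HSC in deleted mice (edgeR adjusted p = 0.796) and at -0.24 ± 0.61 in controls (edgeR adjusted p = 0.865).

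In HPC-1 Vpreb1 had 17, 20, 16 and 5 counts in deleted libraries of litters 1 to 4, against 32, 41, 22 and 30 counts in control libraries. All 4 deleted libraries were below all 4 control libraries in CPM, at 0.667 ± 0.336 in deleted and 1.31 ± 0.231 in control HPC-1 (SD, n = 4 each), in a comparison where 2.08% of genes past the filter had all deleted below all control libraries. Since this contrast was used to choose the set, the difference is a description. The counts are few, and the summed ratio of 0.503 has a 95% exact interval of 0.362 to 0.692 for counting error alone. That interval pools the reads of 4 mice, leaves out the spread between mice and is not a test. Fitted with the spread between mice, the difference was -0.97 ± 0.69 log2 (SE, edgeR).

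Ebf1 and Pax5, the factors that start and hold B-cell identity, were not detected in the 16 HSC and MPP libraries. Counts of 0 in all of them allow up to 0.0436 CPM in deleted and 0.0588 CPM in control HSC, and up to 0.0431 CPM in deleted and 0.0473 CPM in control MPP, summed over each group. In HPC-1 Ebf1, at chr11:44618100-45008096, had 40, 26, 0 and 1 counts in deleted and 40, 27, 0 and 34 counts in control libraries of litters 1 to 4. The values of litters 1 to 3 were alike in both genotypes, and litter 4 held 1 count in the deleted and 34 in the control library.

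Pax5, at chr4:44524748-44710694, had 12, 4, 0 and 0 counts in deleted and 2, 2, 0 and 0 counts in control HPC-1 libraries. It was seen in litters 1 and 2 alone, in both genotypes, and did not pass the count filter in any comparison. Litters 1 and 2 also had the higher Igkc and Ighm values of each genotype in HPC-1.

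**Figure D4:**
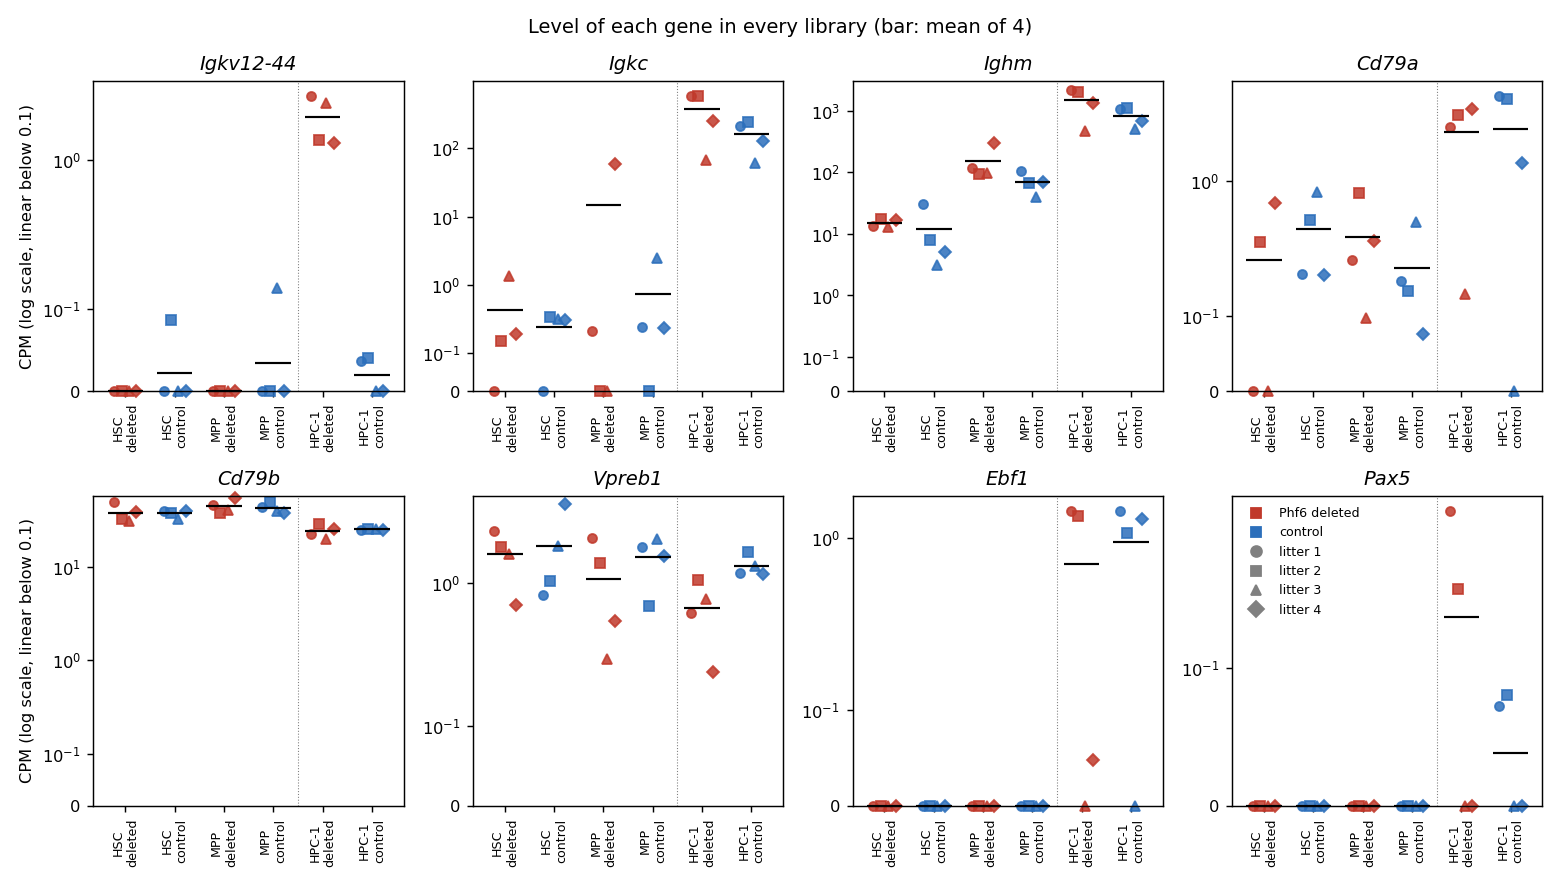
Level of each of the 8 genes in every library, in CPM on a log axis that is linear below 0.1, with deleted (red) left of control (blue) in each population, symbols for litters and a bar for the mean of 4; the dotted line parts HPC-1, made with another kit. Ighm is present in all 24 libraries, Ebf1 and Pax5 have no counts in HSC or MPP, and Igkv12-44 stands at 1.30 to 2.69 CPM in deleted HPC-1 and at 0.0401 CPM or less in control HPC-1.

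Corrected for gene length, the order of mean levels changed with the population. In HSC the mean CPM per kilobase ran from Cd79b at 31.5 through Ighm at 10.2, Vpreb1 at 2.06 and Igkc at 1.32 to Cd79a at 0.198 in deleted mice, and from Cd79b at 31.2 through Ighm at 7.94, Vpreb1 at 2.34 and Igkc at 0.756 to Cd79a at 0.332 in controls. The SD of Igkc was 1.95 in deleted and 0.507 in control HSC, so in deleted HSC its place below Vpreb1 is within the spread. In MPP Ighm led, at 104 ± 68.1 CPM per kilobase in deleted and 47.6 ± 18.5 in control libraries (SD, n = 4 each), with Cd79b at 37.3 in deleted and 35.4 in control libraries within that spread. Igkc averaged 46.1 ± 91.7 CPM per kilobase in deleted MPP, almost all from litter 4, and 2.29 ± 3.62 in control MPP. In HPC-1 Igkc stood at 1159 ± 799 and Ighm at 1012 ± 523 CPM per kilobase in deleted libraries, and Igkc at 504 ± 259 and Ighm at 562 in control libraries, so their order is within the spread of the 4 mice. Cd79b followed at 20.1 in deleted and 21.0 CPM per kilobase in control HPC-1. Then came Igkv12-44 at 5.59 in deleted HPC-1, against 0.0551 in control HPC-1, and Cd79a at 1.73 in deleted and 1.83 in control HPC-1, while Pax5 was the lowest at 0.132 in deleted and 0.0316 in control HPC-1.

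Over the 3 testable genes of the set, 0 were called for deletion in HSC, where 0.0073% of 13693 genes tested passed in edgeR, and 0 in MPP, where 0.029% of 13806 passed. At an unadjusted p under 0.05 in edgeR the count was 0 of 3 in HSC, beside 528 of 13693 genes in all. In MPP it was 1 of 3, Ighm, beside 1117 of 13806 genes in all. DESeq2 called 0 of 3 in each, beside 14 genes in all in HSC and 96 in MPP. The other 5 genes did not pass the count filter there. In the test of a differing effect between MPP and HSC, 0 of 3 were called and 0 of 14561 genes in all, with 417 at an unadjusted p under 0.05 and 2 called by DESeq2.

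A few genes of the early lymphoid lists passed in MPP against HSC, where 1.41% of all genes tested passed in deleted mice and 8.84% in controls. These tests left out that each mouse gave both libraries. With the mouse as a block, 293 of 13887 genes passed in deleted mice, against 196 without it. In controls 2109 of 13636 passed with the block, against 1205 without it. The list genes below were fitted without the block, so which of them pass may depend on it. Of the transcription factors 1 of 6 tested passed in each genotype, of the cytokine receptors 2 of 4 in each, and of the recombination genes 0 of 6 in deleted mice and 1 of 6 in controls. In a list of 12 B-lineage transcription factors, 6 could be tested, with a median MPP against HSC difference of 0.82 log2 in deleted mice and 0.32 in controls, against 0.02 and -0.01 over all genes. Ikzf1, a regulator of early lymphoid development, passed as higher in MPP, by 1.36 ± 0.24 log2 in deleted mice (edgeR adjusted p = 0.0251) and 0.70 ± 0.14 in controls (edgeR adjusted p = 0.00625). Of 5 lymphoid cytokine receptor genes 4 could be tested, and Flt3 and Il2rg passed as higher in MPP in both genotypes, Flt3 by 3.77 ± 0.35 log2 in deleted mice and 3.36 ± 0.21 in controls.

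Dntt, which adds bases at the joints of rearranged segments, was 1 of 6 tested recombination genes and passed in controls. Fitted without a mouse block, MPP exceeded HSC by 5.43 ± 1.33 log2 in deleted mice (edgeR adjusted p = 0.0747). In controls MPP exceeded HSC by 5.62 ± 0.88 log2 (edgeR adjusted p = 0.00284). Of 12 genes of the surrogate light chain and pre-B receptor 7 could be tested, and Ighm was the gene that passed, in deleted mice. In edgeR 0 genes of these 4 lists passed for deletion in HSC or MPP. At an unadjusted p under 0.05 there were 0 in HSC, beside 528 of 13693 genes in all. In MPP there were Ighm of 7 tested pre-B receptor genes, Bcl11a of 6 transcription factors and Kit of 4 cytokine receptors. Of 6 tested recombination genes 0 were under that cutoff in MPP, beside 1117 of 13806 genes in all, so nothing is read from these names.

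Rag1 and Igll1 were scarce outside HPC-1. Rag1, a subunit of the recombinase, had 0 counts in all 8 HSC libraries and 9 counts in MPP, all in the deleted library of litter 1. In HPC-1 Rag1 had 440, 259, 84 and 42 counts in deleted and 797, 397, 59 and 163 counts in control libraries. Igll1, the other part of the surrogate light chain, had 1 count in all HSC and MPP libraries together, and 3, 5, 0 and 0 counts in deleted and 11, 16, 0 and 0 in control HPC-1 libraries. Thus Igll1, Pax5, Cd79a and Ebf1 were all at or near 0 in both HPC-1 libraries of litter 3, which held 59 to 84 counts of Rag1.

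Markers of other cell types are given beside these values. Of 10 mature B-cell markers Ms4a1, Cd22, Fcrla and Ighd had 0 counts in deleted and control HSC, Ms4a1 in deleted MPP and Fcrla in control MPP. Their summed levels, led by Cd74 and Cd37, which other blood cells also express, ran from 254 to 354 CPM in deleted and from 235 to 358 CPM in control HPC-1. Of 13 plasma cell markers all had counts in HPC-1, with a summed level of 196 to 333 CPM in deleted and 170 to 244 CPM in control libraries. Jchain had 4017, 2101, 536 and 1142 counts in deleted and 1682, 2078, 388 and 745 in control HPC-1, with litter 3 lowest in both genotypes. The 10 neutrophil markers summed to between 2277 and 6294 CPM in deleted and 2084 and 3668 CPM in control HPC-1, again with litter 3 lowest, and the 11 T and NK cell markers to between 145 and 177 CPM in deleted and 164 and 195 CPM in control HPC-1. The part of such cells in the immunoglobulin values was not tested.

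As a description over 24 libraries, centred within each population, the genes whose log2 level followed each member most closely were named. Ighm was most like Ccl6, Fcgr3 and Anxa3, with Pearson r of 0.86, 0.83 and 0.83 over 12236 genes compared. Igkc was most like Ctsh, Lta4h and Ctsb at 0.70, 0.67 and 0.65. In HSC and MPP it had at most 54 counts in a library, apart from 1301 in deleted MPP of litter 4. For Cd79b the closest were Morrbid, Alpk3 and Mcemp1 at 0.76, 0.70 and 0.70. For Vpreb1, with at most 47 counts in any library, they were Rexo4, Gtse1 and Zw10 at 0.74, 0.72 and 0.72. Cd79a, with at most 13 counts in any HSC or MPP library, was closest to G6pd2, Pgap4 and E230016M11Rik at 0.76, 0.75 and 0.72. The libraries share mice and litters, so these are not independent points. Igkv12-44, Ebf1 and Pax5 had too few counts to be set beside other genes in this way.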

How the data were processed

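Poly(A) RNA of 24 libraries was read as 80-base pairs. The deposited table holds whole-number counts, listed by Entrez gene. The authors used featureCounts and mm10, according to the submitters' processing notes; no aligner, annotation or strand setting is given in the sources used here. Without strand, overlapping and antisense genes cannot be told apart. Gene lengths are those of the deposited table, and 25275 of 27179 identifiers were named from RefSeq.

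Each comparison was fitted with edgeR 4.0.16 (R 4.3.3) on all genes of its groups, with TMM factors, filterByExpr defaults (minimum count 10, minimum total 15), the robust quasi-likelihood test and Benjamini-Hochberg adjustment at 0.05. It was tested on simulated data. CPM use TMM-scaled totals, set together for the 16 HSC and MPP libraries and apart for HPC-1. A standard error is the log2 fold change over the square root of F. A count of 0 is given a limit of 3 counts over the group; intervals cover counting error only, since amplified reads are not independent molecules. The main fits held no litter or mouse term, so the pairing of libraries was left out of them. Alternatives were DESeq2 1.42.0, RLE size factors, no filter, a litter or mouse block, and leaving out each library.

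The members, gene lists and rule for named genes were chosen with earlier results of these data known. All members were named, with list genes past the threshold or highest in mean CPM, the top variable segment of a library, and the 3 most alike genes by Pearson correlation of log2(CPM + 0.5). Chosen after their values were seen were Rag1, Igll1, Jchain, Ighg1, Bcl11a, Kit, Igkv12-41, Igkv12-46, the markers listed at 0 and the segments that separated the HPC-1 groups. The numbers pair libraries by design, since the labels give a shared litter, or the same mouse for 2 populations. Deviations from group means correlated between same-numbered libraries by 0.011 to 0.058 (HSC), 0.0019 to 0.15 (MPP) and 0.075 to 0.39 (HPC-1). Between differently numbered libraries the values were -0.097 to 0.065 (HSC), -0.19 to 0.14 (MPP) and -0.21 to 0.12 (HPC-1). Between MPP and HSC of a mouse they were 0.019 to 0.37 (deleted) and 0.14 to 0.32 (control). Between MPP and HSC of different mice they were -0.3 to 0.095 (deleted) and -0.17 to 0.015 (control). Same-numbered and other pairs overlapped in all but the last comparison, MPP and HSC of controls.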

Additional observations from a re-analysis of the deposited data

Results flagged for a closer look

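In 7 of the 38 groups of 4 libraries in which a gene of the set varied, 1 library stood apart from the other 3 by Dixon's criterion, which chance meets in about 1 group in 20. That rate does not hold for groups near 0 counts: for Igkv12-44 in control HSC and control MPP the other 3 libraries had 0 counts, so any count in the remaining library meets the criterion. In MPP of deleted mice the library of litter 4 stood above the others for both Igkc, at 58.8 CPM, and Ighm, at 306 CPM, and it also held 13380 CPM of summed neutrophil markers. In control MPP the library of litter 3 stood above the others for both Igkc, at 2.46 CPM, and Igkv12-44, at 0.137 CPM from 3 counts.

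In HSC the deleted library of litter 3 stood above the others for Igkc, at 1.35 CPM from 18 counts. The control HSC library of litter 1 was listed at 0 for Igkc, below the other 3, and the control HSC library of litter 2 had the 1 count of Igkv12-44, at 0.0861 CPM. The values of these HSC libraries rest on at most 18 counts each.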

How the results depend on the processing

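Few counts limit Igkv12-44, Igkc, Cd79a, Ebf1 and Pax5 in HSC and MPP, where no test was possible after the count filter, and 4 mice a group limit all tests. In MPP against HSC of controls 0 of the 3 tested genes passed in the main test, 1 passed with DESeq2 and 1 with the replicate block by mouse (Ighm in both), and 0 to 1 passed when each library was left out in turn, the 1 without the HSC library of litter 1. Deleted against control HPC-1 was a comparison used to choose the set. Its count of 1 gene past the threshold became 0 without any 1 of the 8 libraries (range 0 to 0). The log2 difference of Igkv12-44 lay between 5.86 and 6.66 in these fits, against 6.23 with all libraries. Igkv12-44 passed the count filter through its deleted libraries alone. Every such fit reuses the counts that chose the segment, so nothing is read from the call or from this range. The block changed no other call.

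Directions turned for small differences. With the litter block Cd79b in HSC was -0.00035 log2 and Cd79a in HPC-1 0.28 log2. With each library left out in turn, the lowest and highest log2 values for deleted against control were -0.12 and 0.11 for Cd79b and -0.41 and 0.39 for Vpreb1 in HSC, -0.047 and 0.15 for Cd79b in MPP, and -0.49 and 0.34 for Cd79a and -0.16 and 0.021 for Cd79b in HPC-1. For MPP against HSC in controls they were -0.48 and 0.29 for Vpreb1, and for the deletion effect in MPP minus HSC they were -0.38 and 1.09 for Ighm and -0.056 and 0.21 for Cd79b. The cause was not tested.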
